A study of Mus musculus with 12 samples.

Results

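The interleukin-1 family genes described here are the cytokines Il1a, Il18 and Il33, the antagonists Il1rn, Il18bp and Irak3, and the receptor chains Il1r1 and Il1rap. They were listed by name as ligands, receptors and inhibitors of the family, with no threshold on their values. Of the 9 genes listed, 8 were among the 11289 genes of the expression table, and Il1b was not analysed here. The family was followed in the livers of 12 C57BL/6J mice in a study of acute immune hepatitis, and their labels give an age of 8 to 10 weeks. Concanavalin A (Con A), a lectin of the jack bean that stimulates T cells and thereby damages the liver, was injected into the tail vein at 15 mg/kg in 8 of the mice, and these received either PBS (Con A + PBS, 4 mice) or human mesenchymal stem cells grown from Wharton's jelly, the gelatinous tissue of the umbilical cord (Con A + hWJ-MSCs, 4 mice) intravenously 30 min later. The other 4 mice were controls, for which the labels state no injection. Livers were collected at 24 h, so that each group gives a single time point, and the human cells were given to mice of a strain with an intact immune system. The labels give 2000000 cells per mouse, while the methods of the study name fewer cells and younger, male mice.

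Interleukin-1 ligands bind Il1r1, which recruits Il1rap and passes the signal through the adaptor Myd88 and the IRAK kinases to NF-κB. Il1rn encodes the receptor antagonist, which occupies Il1r1 without recruiting Il1rap. Il18bp encodes a secreted decoy that binds interleukin-18, and Irak3 encodes an IRAK protein that acts mainly as a brake on the Myd88 complex. In the liver, interleukin-1 is known for inducing acute phase proteins in hepatocytes, interleukin-18 for activating T and NK cells, and interleukin-33 as an alarmin of injured tissue that signals through a receptor of its own together with Il1rap.

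The promoters of an antagonist and of a ligand that moved in opposite directions, Il1rn and Il1a, and of the second secreted antagonist, Il18bp, are shown because short motifs were found in them. Each is the stretch of 250 bases before the RefSeq start in GRCm38.p6, given 5′ to 3′ on the strand of the gene, at chr2:24336610-24336859 on the plus strand for Il1rn, chr2:129309973-129310222 on the minus strand for Il1a and chr7:102018233-102018482 on the minus strand for Il18bp. Capitals mark a match to the AP-1 letters TGANTCA in Il1rn and Il1a, and to the C/EBP-type letters TTGCNNAA in Il18bp.
Il1rn: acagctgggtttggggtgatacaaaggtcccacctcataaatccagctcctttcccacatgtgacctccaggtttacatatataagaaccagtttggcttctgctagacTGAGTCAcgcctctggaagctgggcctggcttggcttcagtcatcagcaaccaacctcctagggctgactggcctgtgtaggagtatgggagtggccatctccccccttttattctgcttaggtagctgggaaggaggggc
Il1a: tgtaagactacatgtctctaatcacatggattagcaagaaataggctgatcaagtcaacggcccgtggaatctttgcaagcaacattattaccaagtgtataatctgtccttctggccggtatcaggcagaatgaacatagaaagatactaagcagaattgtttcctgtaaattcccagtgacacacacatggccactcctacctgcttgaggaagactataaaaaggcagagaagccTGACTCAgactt
Il18bp: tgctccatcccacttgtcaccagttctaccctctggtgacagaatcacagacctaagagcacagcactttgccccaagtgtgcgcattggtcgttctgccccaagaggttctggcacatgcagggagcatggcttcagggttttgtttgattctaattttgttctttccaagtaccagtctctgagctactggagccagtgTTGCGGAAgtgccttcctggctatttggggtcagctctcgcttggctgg

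The AP-1 letters lay at positions -141 to -135 from the start in Il1rn and at -12 to -6 in Il1a, and 6.75% of 32851 mouse promoters of the same length hold them. The C/EBP-type letters lay at -49 to -42 in Il18bp and at -133 to -126 in Il1r1, and 9.56% of the promoters hold them. Both strands were searched in the 7 genes whose RefSeq start lay within 100 bases of the start in the expression table, which left out Il18. The letters TTCNNNGAA (a STAT-type site), the core of the interferon-stimulated response element and the NF-κB consensus had no match in these 7 windows, and 7.02%, 2.98% and 3.90% of all promoters hold them. A match is a run of letters and was not tested for binding.

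Poly-A RNA was sequenced as 150-bp paired reads, and the deposited value of each gene is a normalised score without a unit, a whole number that cannot be turned back into reads. The depth behind a score is therefore unknown. All libraries had the same median score, 352, and totals between 17649654 and 17657159, so a score states a gene's standing within its library and not its amount per cell. The scores of different genes were not compared with each other, because nothing in the sources used here says whether they were divided by gene length. Each gene in the table reaches a score of 64 in at least 2 mice. Il1a and Il18 reached it in control mice alone and Il33 and Irak3 in Con A-injected mice alone, so these 4 genes are in the table through the groups in which they were high. All 10 hepatocyte markers were in the table, and Alb stood in every mouse at the largest score, a value shared by 10 genes per library that can show no change. Changes were tested with limma on log2(score + 1) in 1 fit over all 12 mice. A call needed a fold change above 1.5 in either direction together with an adjusted p below 0.05, by the Benjamini-Hochberg method over all 11289 genes.

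After Con A + PBS, the antagonists rose with Il33 and Il1r1, while Il1a, Il18 and Il1rap fell. Il1rn changed most, by 46.4-fold. All 8 genes were called against control, 5 up and 3 down, in a comparison in which 38.8% of all genes were called, 19.5% up and 19.2% down. Because 4 of the 8 are in the table through the control mice alone or the Con A mice alone, this count is not read as a property of the family. With hWJ-MSCs, 4 of the 8 were called against Con A + PBS, where 8.58% of all genes were: Il1rn and Irak3 were lower, as were 4.38% of all genes, and Il18 and Il1rap were higher, as were 4.20%. When only the 8 mice of the Con A groups were fitted, Il1rn was called and Il18, Irak3 and Il1rap were not (limma adjusted p = 0.0560, 0.0666 and 0.0594). Over all genes, calls in this comparison were few without some mice, with 5 up and 2 down without replicate 1 of Con A + PBS, 8 and 10 without replicate 2 of Con A + hWJ-MSCs, and 4 and 3 without replicate 3 of Con A + hWJ-MSCs. The Con A + PBS mice stand in both comparisons, so opposite signs in them are not independent observations. Against control, 6 of the 8 were called in the Con A + hWJ-MSCs mice, 4 up and 2 down, beside 26.7% of all genes (13.6% up and 13.1% down).

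**Figure D1:**
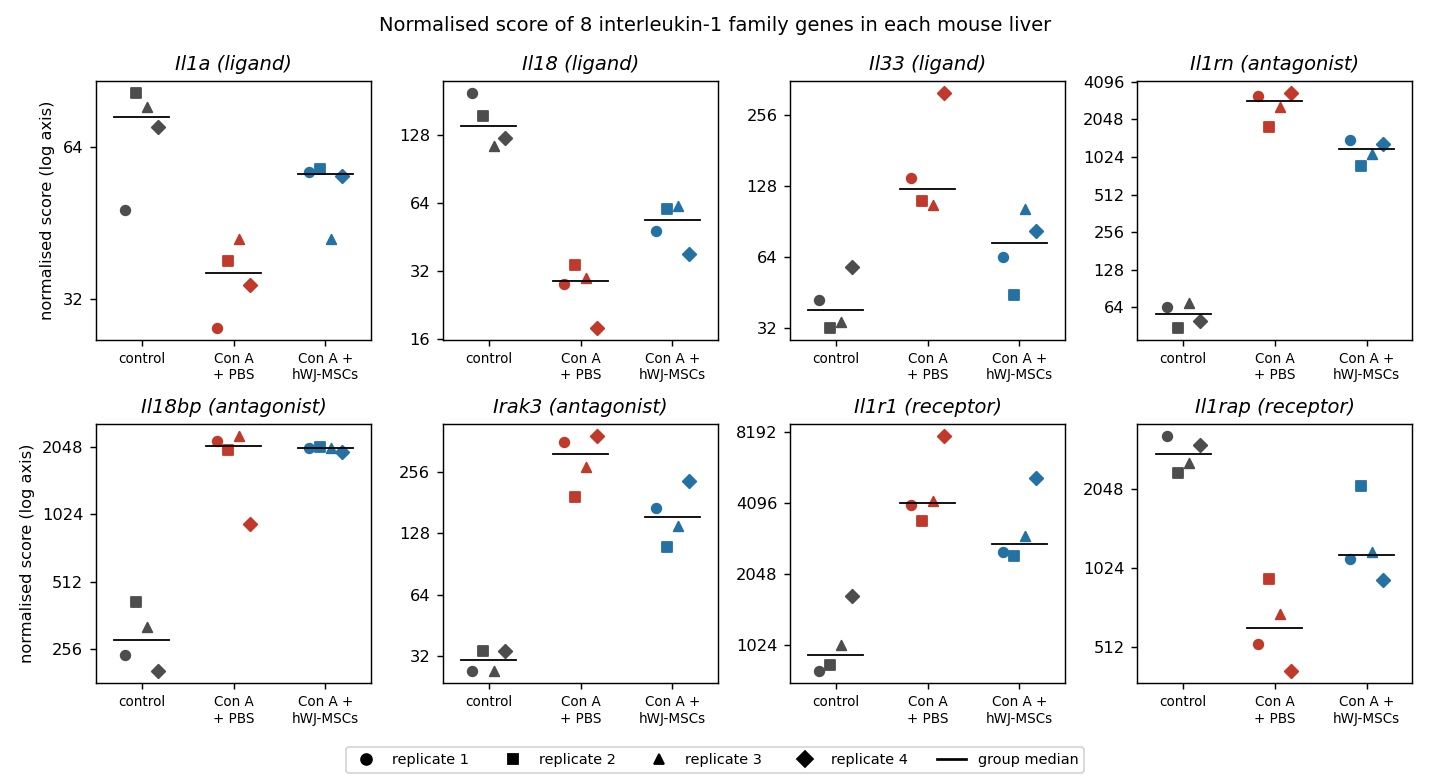
Normalised score (log axis) of each of the 8 genes in every mouse, grouped from left to right as control, Con A with PBS and Con A with hWJ-MSCs, with the replicate number as the symbol and the group median as a line. Il1rn lies between 44 and 69 in control mice and between 1784 and 3348 after Con A + PBS, with the hWJ-MSC mice between them at 868 to 1411.

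Among the ligands, Il1a (chr2:129299610-129309972, minus strand, mm10 as are all gene positions here) encodes interleukin-1α, which is made inside cells and released on damage. Its score was 48, 82, 77 and 70 in the control mice, 28, 38, 42 and 34 after Con A + PBS, and 57, 58, 42 and 56 with hWJ-MSCs. The Con A + PBS values all lay below the control values, while the hWJ-MSC mice overlapped both other groups. The group means were 69.2 ± 15.0, 35.5 ± 5.97 and 53.2 ± 7.54 (SD, n = 4 each). Il1a fell by 0.93 on the log2 scale after Con A + PBS (SE 0.22). With hWJ-MSCs the change against Con A + PBS was 0.58 (95% confidence interval 0.10 to 1.05), which did not pass after adjustment (limma adjusted p = 0.0889), and against control it was -0.36 and not called. Since Il1a reached a score of 64 in control mice alone, both changes against control are given as a description, without their p.

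Il18 (chr9:50575273-50581837, plus strand) encodes interleukin-18, an inducer of interferon-γ that is stored as a precursor. The score was 196, 155, 114 and 124 in control mice, 28, 34, 30 and 18 after Con A + PBS, and 48, 60, 62 and 38 with hWJ-MSCs. The 3 groups did not overlap, with controls highest and Con A + PBS lowest. Il18 fell by 2.38 (SE 0.25) after Con A + PBS, a 5.21-fold lower level. It was 1.87-fold higher with hWJ-MSCs than with PBS (log2 fold change 0.90, SE 0.25, limma adjusted p = 0.03835) and 2.78-fold lower than in control mice. Its place in the table comes through the control mice, so both differences from control are given as a description, without their p. The call between the Con A groups was lost, at adjusted p between 0.0587 and 0.109, without replicate 1, 3 or 4 of Con A + PBS or replicate 1, 2 or 3 of Con A + hWJ-MSCs, while the log2 fold change stayed between 0.72 and 1.04 in all 12 such fits.

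Il33 (chr19:29925114-29960718, plus strand), the alarmin of the family, moved the other way from Il1a and Il18 after Con A. Its score was 42, 32, 34 and 58 in control mice, 138, 110, 106 and 318 after Con A + PBS, and 64, 44, 102 and 82 with hWJ-MSCs. Replicate 4 stood far above the other 3 mice of Con A + PBS, and the hWJ-MSC mice lay below every Con A + PBS mouse but overlapped the controls. Il33 rose by 1.87 after Con A + PBS (SE 0.36). It is in the table through the Con A mice, so its differences from control are given as a description, without their p. The change with hWJ-MSCs against Con A + PBS, -1.10, was not called over all genes (SE 0.36, 95% confidence interval -1.87 to -0.33, limma adjusted p = 0.0567). Over the 12 fits that left out a mouse it ranged from -1.28 to -0.74, at adjusted p between 0.0425 and 0.154. The smallest change was without replicate 4 of Con A + PBS, and the difference was called without replicate 2 of that group alone (-1.25). The hWJ-MSC mice and controls differed by 0.77, which was not called with all mice. It was called without replicate 4 of Con A + PBS and without replicate 2 of Con A + hWJ-MSCs (0.99).

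The secreted interleukin-1 antagonist Il1rn (chr2:24336853-24351494, plus strand) had scores of 64, 44, 69 and 50 in control mice. After Con A + PBS they were 3150, 1784, 2565 and 3348, and with hWJ-MSCs 1411, 868, 1085 and 1302. The 3 groups did not overlap, and the lowest Con A + PBS mouse stood above the highest hWJ-MSC mouse. The means were 56.8 ± 11.7, 2712 ± 702 and 1166.5 ± 241 (SD, n = 4 each). Il1rn rose by 5.54 (SE 0.22, limma adjusted p = 6.19e-09) after Con A + PBS. With hWJ-MSCs it was 2.30-fold lower than with PBS (log2 fold change -1.20, SE 0.22, limma adjusted p = 0.0188) and 20.2-fold higher than in controls (limma adjusted p = 9.36e-08). Without replicate 1 of Con A + PBS, or without replicate 2 or 3 of Con A + hWJ-MSCs, the difference between the Con A groups was -1.11, -1.07 and -1.17, at limma adjusted p = 0.0696, 0.0609 and 0.0567. Its direction was the same in all 12 fits that left out a mouse.

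Il18bp (chr7:102015079-102018155, minus strand), the decoy for interleukin-18, had scores of 242, 416, 322 and 205 in control mice. After Con A + PBS they were 2168, 1978, 2291 and 924, and with hWJ-MSCs 2026, 2042, 2026 and 1939. Both Con A groups lay above all controls and overlapped each other, and replicate 4 of Con A + PBS was the 1 mouse well below the others. Il18bp rose 6.06-fold (SE 0.27 on the log2 scale, limma adjusted p = 1.06e-05) after Con A + PBS and 7.01-fold (limma adjusted p = 1.27e-05) with hWJ-MSCs against control. No difference between the Con A groups was detected (log2 fold change 0.21, 95% confidence interval -0.38 to 0.80, limma adjusted p = 0.611), and the estimate was -0.09 without replicate 4 of Con A + PBS. The interval still allows a change of up to 0.80 upward.

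Irak3 (chr10:120141648-120201659, minus strand), the inhibitor inside the cell, had scores of 27, 34, 27 and 34 in control mice, 356, 192, 270 and 383 after Con A + PBS, and 169, 109, 138 and 230 with hWJ-MSCs. Both Con A groups lay above all controls, and replicate 4 of the hWJ-MSC group overlapped the lowest Con A + PBS mouse. Irak3 rose by 3.22 (SE 0.25) after Con A + PBS and by 2.32 with hWJ-MSCs against control. Irak3 is in the table through the Con A mice, so both rises are given as a description, without their p. It was 1.86-fold lower with hWJ-MSCs than with PBS (log2 fold change -0.89, SE 0.25, limma adjusted p = 0.0390). That call was lost, at adjusted p between 0.0502 and 0.113, without replicate 3 of the controls, replicate 1, 3 or 4 of Con A + PBS or replicate 1, 2 or 3 of Con A + hWJ-MSCs, with the log2 fold change between -1.09 and -0.72 over all 12 fits.

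The receptor chains moved in opposite directions after Con A. Il1r1 (chr1:40225080-40316177, plus strand), the chain that binds the ligand, had scores of 792, 838, 1018 and 1649 in control mice, 4022, 3432, 4169 and 7908 after Con A + PBS, and 2540, 2430, 2960 and 5228 with hWJ-MSCs. Both Con A groups lay above all controls and overlapped each other, and replicate 4 was highest in each of the 3 groups. Il1r1 rose by 2.17 (SE 0.31, limma adjusted p = 0.000107) after Con A + PBS and by 1.60 (limma adjusted p = 0.00166) with hWJ-MSCs against control. The change with hWJ-MSCs against Con A + PBS was -0.56 and not called (95% confidence interval -1.24 to 0.12, limma adjusted p = 0.219). It was -0.30 without replicate 4 of Con A + PBS and -0.81 without replicate 4 of Con A + hWJ-MSCs, and was not called in either fit.

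Il1rap (chr16:26581704-26725264, plus strand), the accessory chain shared by the interleukin-1 and interleukin-33 receptors, had scores of 3273, 2361, 2582 and 3011 in control mice. After Con A + PBS they were 526, 928, 682 and 415, and with hWJ-MSCs 1109, 2107, 1182 and 921. All Con A mice lay below all controls, and the Con A groups overlapped by a small margin, since the lowest hWJ-MSC mouse (921) stood just under the highest Con A + PBS mouse (928). Il1rap fell by 2.19 (SE 0.27, limma adjusted p = 3.38e-05) after Con A + PBS. It was 2.07-fold higher with hWJ-MSCs than with PBS (log2 fold change 1.05, SE 0.27, limma adjusted p = 0.03205) and lay below control by a log2 fold change of -1.14 (limma adjusted p = 0.00511). The call between the Con A groups was lost, at adjusted p between 0.0514 and 0.0898, without replicate 1, 3 or 4 of Con A + PBS or replicate 1, 2 or 3 of Con A + hWJ-MSCs, with the log2 fold change between 0.80 and 1.25 over all 12 fits.

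**Figure D2:**
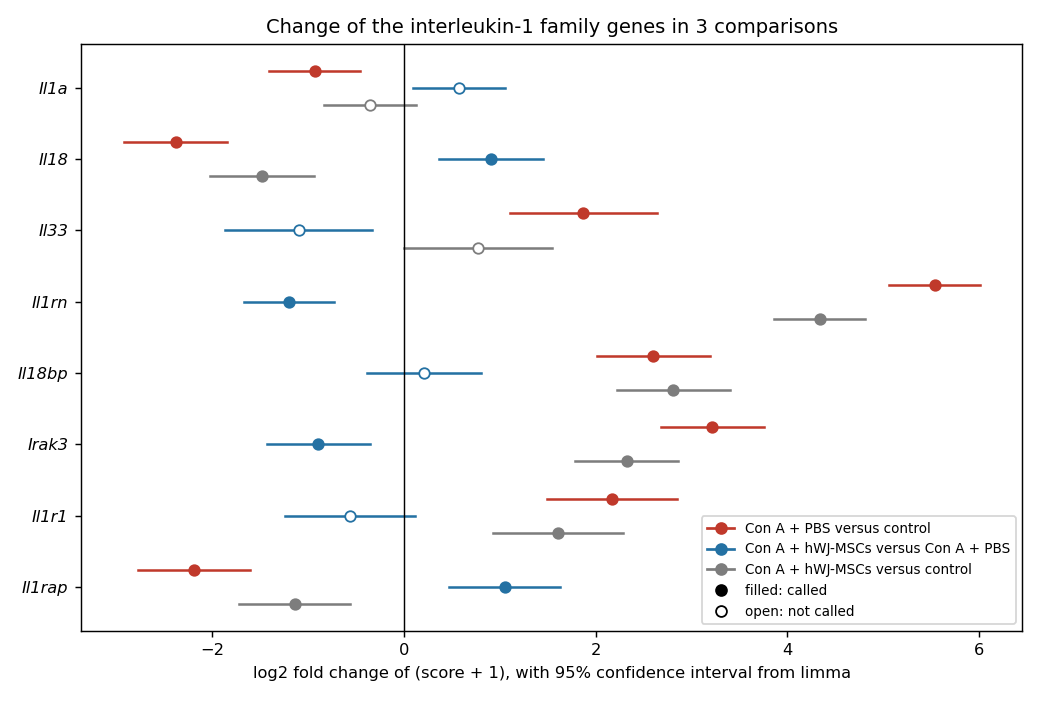
Log2 fold change of (score + 1) of the 8 genes in the 3 comparisons, with the 95% confidence interval from limma as a line; filled points were called. Il1rn is farthest from 0 at 5.54 in Con A + PBS versus control, and the 4 filled points between the Con A groups are Il1rn (-1.20), Irak3 (-0.89), Il18 (0.90) and Il1rap (1.05).

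The balance of an antagonist and its ligand was followed in each mouse as a difference of log2(score + 1) and tested with an exact permutation test (two-sided), whose smallest possible p for groups of 4 is 0.0286. Il1rn minus Il1a was 0.41, -0.88, -0.16 and -0.48 in control mice, 6.76, 5.52, 5.90 and 6.58 after Con A + PBS, and 4.61, 3.88, 4.66 and 4.51 with hWJ-MSCs. The groups did not overlap, and every hWJ-MSC mouse lay between the control and the Con A + PBS mice. The difference between the means of the hWJ-MSC and PBS mice was -1.77 (exact permutation p = 0.0286, the smallest possible and not adjusted). No adjusted p is given for this pair or the next, because the adjustment took in the comparisons with control. Against control the mean was 6.47 higher with Con A + PBS and 4.69 higher with hWJ-MSCs. Il1a is in the table through its control values, so both differences from control are given as a description, without their p.

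Il18bp minus Il18 was 0.30, 1.42, 1.49 and 0.72 in control mice, 6.22, 5.82, 6.21 and 5.61 after Con A + PBS, and 5.37, 5.07, 5.01 and 5.64 with hWJ-MSCs. The Con A groups overlapped in replicate 4 of each and stood far above control. Con A + PBS exceeded control by 4.98 and Con A + hWJ-MSCs exceeded it by 4.29, and into these enter the log2 fold changes of Il18 itself, -2.38 and -1.48. Il18 is in the table through its control values too, so both are again a description. The difference between the Con A groups, -0.69, had an exact permutation p of 0.0571, again without adjustment.

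The secreted antagonists themselves were then set against each other, a pair chosen after their values were seen. Il1rn minus Il18bp was 0.54, -0.15, 0.16 and 1.86 after Con A + PBS and -0.52, -1.23, -0.90 and -0.57 with hWJ-MSCs, without overlap. The difference of the means was -1.41, and -0.99 without replicate 4 of Con A + PBS. It describes the values that led to its choice and is given without a test. In control mice the value lay between -3.21 and -1.90, below both Con A groups.

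**Figure D3:**
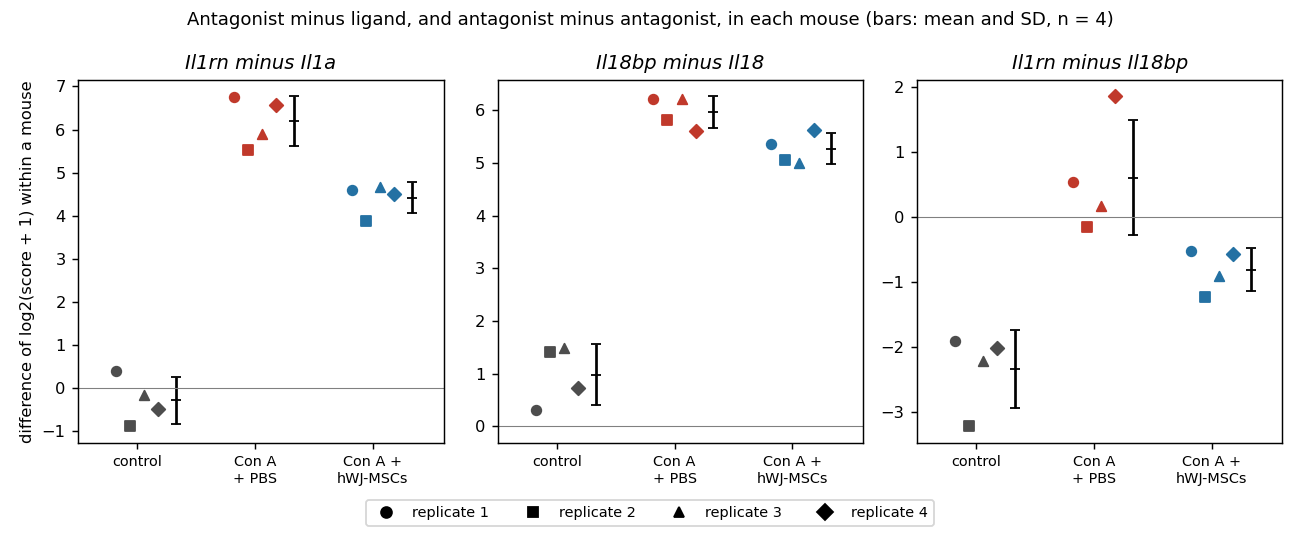
Difference of log2(score + 1) within each mouse for Il1rn minus Il1a, Il18bp minus Il18 and Il1rn minus Il18bp in the 3 groups; symbols give the replicate number, and the bars are the mean and SD of 4 mice. Il1rn minus Il1a separates the 3 groups, with means of -0.28, 6.19 and 4.41, whereas the 2 Con A groups overlap in Il18bp minus Il18.

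The remaining genes of the pathway were described in 4 lists, of which 64 of 90 genes were in the table, some through the Con A or the control mice alone. After Con A + PBS, 34 of the 64 were called up and 6 down, where 19.5% and 19.2% of all genes were, with a median log2 fold change of 0.76 beside 0.05 over all genes. With hWJ-MSCs against Con A + PBS, 1 was called up and 14 down, where 4.20% and 4.38% of all genes were, with a median of -0.30 beside 0.00 over all genes. The latter count was 1 without replicate 1 of Con A + PBS and without replicate 2 or replicate 3 of Con A + hWJ-MSCs, and 6 without replicate 4 of Con A + PBS. In the hWJ-MSC mice against control, 29 were called up and 5 down, where 13.6% and 13.1% of all genes were, with a median of 0.40 beside 0.04.

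Of 12 further ligands and receptors, Il1r2 and Sigirr were in the table. Il1r2, the decoy receptor that binds interleukin-1 without signalling, was listed at 0, 0, 4 and 0 in control mice, 105, 94, 86 and 116 after Con A + PBS, and 97, 14, 65 and 68 with hWJ-MSCs. It is in the table through the Con A groups, so its higher scores there than in control are given as a description, without their p. The Con A groups, which overlapped, gave a log2 fold change of -0.98 that was not called (95% confidence interval -2.42 to 0.45, limma adjusted p = 0.307) and was -0.40 without replicate 2 of Con A + hWJ-MSCs. Sigirr, an inhibitory receptor of the family, had means of 507.5 ± 44.9, 294.5 ± 73.8 and 444 ± 76.4 (SD, n = 4 each). Sigirr fell by 0.82 after Con A + PBS (limma adjusted p = 0.00248) and was 1.53-fold higher with hWJ-MSCs than with PBS (limma adjusted p = 0.0477), with overlapping groups. That call was lost, at adjusted p between 0.0526 and 0.119, without any 1 of 10 mice, the exceptions being control replicate 1 and Con A + PBS replicate 2.

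The close partners of Irak3 had smaller fitted changes than Irak3 itself, and the differences between these genes were not tested. Of the adaptors and kinases, 19 of 20 were in the table, and 2 were called up and 1 down after Con A + PBS, where 19.5% and 19.2% of all genes were, with a list median of 0.25. Myd88, the adaptor of the receptor complex, rose by 1.14 (SE 0.10, limma adjusted p = 3.69e-06). Ube2v1, a partner of the ubiquitin-conjugating enzyme used by Traf6, rose by 0.62, and Peli2, a ubiquitin ligase that acts on IRAK proteins, fell by 0.60. Both lay close to the fold threshold and dropped under it, with Ube2v1 at 0.57 without control replicate 1 or Con A + PBS replicate 4, and Peli2 between -0.55 and -0.49 without control replicate 2 or 4 or Con A + PBS replicate 4. The kinases Irak1, Irak2 and Irak4 had log2 fold changes of 0.07, 0.39 and 0.40 and were not called. With hWJ-MSCs against Con A + PBS none of the 19 was called. Myd88 and Ube2v1 were lower without overlap but under the fold threshold, with log2 fold changes of -0.38 and -0.42 (limma adjusted p = 0.0385 and 0.0269).

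Genes that process interleukin-1 and interleukin-18 moved both ways after Con A + PBS. Of 23 listed, 14 were in the table, and 5 were called up and 4 down, where 19.5% and 19.2% of all genes were. Pycard is in the table through the Con A groups, and Serpinb1a and Naip5 through the controls. Pycard, which assembles the inflammasome, rose by 1.46, Casp4, the caspase of the non-canonical inflammasome, rose by 1.10, and Gsdmd, which forms the pore through which the cytokines leave, rose by 0.89. Casp1, the protease that cleaves the precursor of interleukin-18, had a log2 fold change of 0.17 and was not called (limma adjusted p = 0.271). The neutrophil protease gene Prtn3 fell by 2.03 and the protease inhibitor Serpinb1a fell by 1.96. None of the 14 was called between the Con A groups by limma; Casp1 changed by 0.06 there.

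Genes known to respond to interleukin-1 were the largest group. They also respond to other cytokines that act through NF-κB or STAT3, so the list is not specific to interleukin-1. Of 35 listed, 29 were in the table, and 26 were called up and none down after Con A + PBS, beside 19.5% and 19.2% of all genes, with a median of 2.80. Of the 29, 6 (Cxcl2, Ccl2, Saa3, Ptgs2, Nos2 and Ier3) stayed below a score of 64 in every control mouse and are in the table through the Con A groups, so their rise is part of how they came to be measured and the count and median are a description. Cxcl2 stayed below 64 in every hWJ-MSC mouse as well and is in the table through Con A + PBS alone. The acute phase gene Saa3 was between 35 and 58 in control mice and at 72724 in 3 Con A + PBS mice and 20871 in replicate 4, and it rose by 10.09. Ptgs2, which makes prostaglandin H2, was listed at 0 in all control mice and at 164 to 282 after Con A + PBS.

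With hWJ-MSCs, 14 of these 29 genes were called lower than with PBS and none higher, beside 4.38% and 4.20% of all genes, with a list median of -0.64. The count was 1 without replicate 1 of Con A + PBS and without replicate 2 or 3 of Con A + hWJ-MSCs, and 6 without replicate 4 of Con A + PBS. The neutrophil chemokine Cxcl2 was between 92 and 436 after Con A + PBS and between 9 and 38 with hWJ-MSCs, and fell by 2.83 (SE 0.59, limma adjusted p = 0.0225). Nos2, the inducible nitric oxide synthase, was 441, 211, 198 and 550 after Con A + PBS and 92, 22, 76 and 46 with hWJ-MSCs, and fell by 2.59 (limma adjusted p = 0.0324). Ptgs2 fell by 1.10 (limma adjusted p = 0.0334), to between 73 and 119. The calls of Cxcl2 and Nos2 were lost without replicate 1 or 4 of Con A + PBS or replicate 2 or 3 of Con A + hWJ-MSCs, at adjusted p of up to 0.0973 for Nos2. That of Ptgs2 was lost, at up to 0.109, without replicate 1, 3 or 4 of Con A + PBS or without any 1 of the hWJ-MSC mice. The feedback inhibitors Tnfaip3 and Nfkbia, which restrain NF-κB, fell by 2.18 and 0.99. Tnfaip3 was called in all 12 fits that left out a mouse, and the call of Nfkbia was lost without replicate 1 of Con A + PBS (adjusted p = 0.0744) or replicate 2 or 3 of Con A + hWJ-MSCs (0.0739 and 0.0660). The acute phase genes Saa3 and Saa1 had log2 fold changes of -0.12 (95% confidence interval -0.93 to 0.70) and 0.43 between the Con A groups, and neither was called. Saa3 was tied at 72724 in replicates 1, 2 and 3 of Con A + PBS and at 58110 in replicates 1, 2 and 3 of Con A + hWJ-MSCs. Its interval is therefore a poor measure of the spread between mice.

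**Figure D4:**
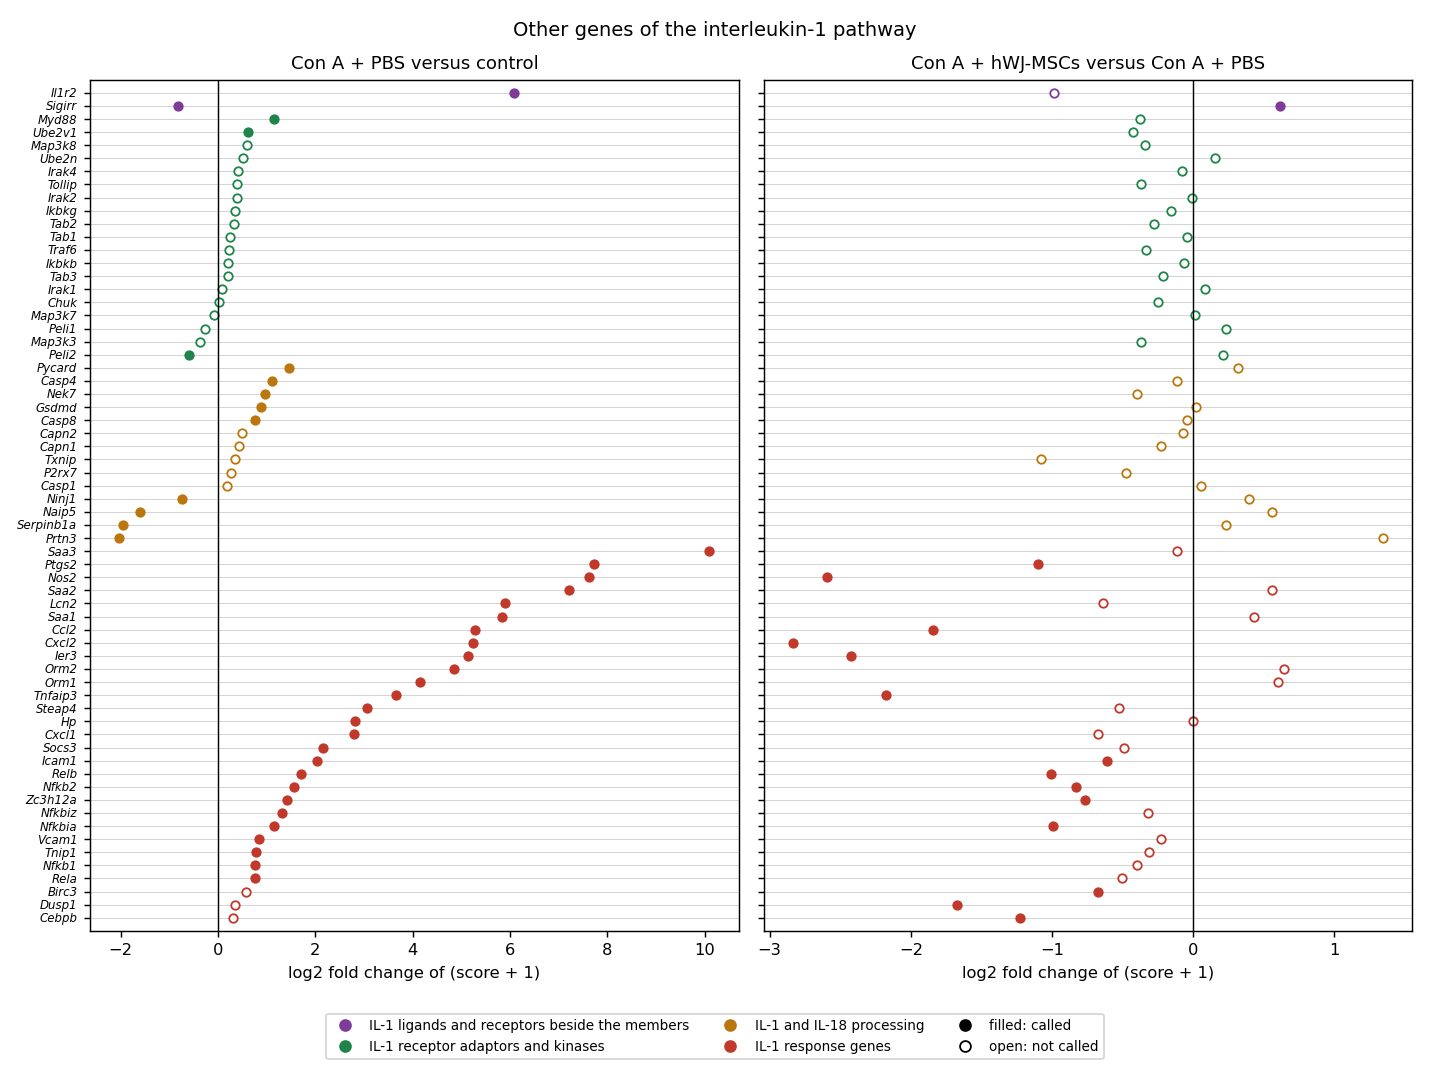
Log2 fold change of (score + 1) of the 64 pathway genes in Con A + PBS versus control (left) and hWJ-MSCs versus PBS after Con A (right), coloured by list, with filled points for called genes; the x axes differ in range. Filled points of the response genes lie to the right of 0 on the left panel (26) and to the left of 0 on the right panel (14), while the adaptors and kinases are mostly open and near 0; values of Il1r2, Ptgs2 and Nos2 on the left depend on control scores at or near 0.

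Markers of other cells moved together with the family. In whole liver, fewer cells of a type and less RNA per cell cannot be told apart. The summed score of 16 monocyte and neutrophil markers (of 18 listed) ranged from 705 to 899 in control mice, 7773 to 9361 after Con A + PBS and 3729 to 6715 with hWJ-MSCs. After Con A + PBS 14 of the 16 were called up, but 9 of the 16 are in the table through the Con A groups, as their control scores all lay below 64. For this and the other marker lists, the shares over all genes were 19.5% up and 19.2% down after Con A + PBS and 8.58% called in either direction between the Con A groups. Between the Con A groups 1 monocyte and neutrophil marker was called, Cd14, which was lower with hWJ-MSCs and made up most of the difference between the sums. Its median was 4713 after Con A + PBS and 2048 with hWJ-MSCs, and the sums of the other 15 markers overlapped between the Con A groups, at 3001 to 4147 and 2720 to 4640, beside 656 to 839 in control mice. The sum over 11 Kupffer cell and macrophage markers (of 12) ranged from 5963 to 9483, 1811 to 2686 and 912 to 2595, with 10 called down and 1 up after Con A + PBS, 2 of the 11 (Timd4 and Cd163) being in the table through the controls. Clec4f, the defining Kupffer cell marker, was between 1282 and 1646 in control mice, 43 and 76 after Con A + PBS and 25 and 104 with hWJ-MSCs. The marker called up was Cd68, with medians of 126, 941 and 397, and it had the highest median of the list after Con A + PBS. The controls were highest in Clec4f as they were in Il18 and Il1rap, and as they were in the endothelial and hepatocyte sums below. This order is thus not particular to Kupffer cell markers. The margin over the hWJ-MSC mice was narrow in Il1rap (2361 in the lowest control and 2107 in the highest hWJ-MSC mouse).

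The sum over 12 endothelial markers ranged from 4586 to 6873 in control mice, 1920 to 2886 after Con A + PBS and 2292 to 3323 with hWJ-MSCs, and 8 of the 12 were called down against control and 1, Lyve1, was called up. Of the 8, Clec4g is in the table through the controls. Between the Con A groups, in the fit over all 12 mice, Stab2 was called higher and Lyve1 and Cdh5 lower with hWJ-MSCs. Of the T, NK and NKT cell markers, 5 of 16 were in the table, all of them below a score of 64 in every control mouse and thus present through the Con A groups, so that their 5 calls up are not read as a result. Their sums were 39 to 75 in control, 600 to 1111 after Con A + PBS and 582 to 1130 with hWJ-MSCs. The 12 stellate cell markers overlapped between groups in their sum (7605 to 12212, 7656 to 8670 and 5834 to 11293), and 5 of them were called down after Con A + PBS (Ecm1, Pdgfrb, Reln, Colec11 and Lrat). Dcn, not called there, had the highest median of the list in each group (3506.5, 4897.5 and 3541.5), so the sum does not show these falls. Colec11 had medians of 458.5, 13 and 28.5, and was the 1 stellate marker called between the Con A groups, higher with hWJ-MSCs. The 10 hepatocyte markers summed to 1454069 to 1643283 in control mice, 1076763 to 1122536 after Con A + PBS and 1092291 to 1174419 with hWJ-MSCs, so that the controls were highest here as well. Of these markers, Fgb was called up and Apoa1, Cyp2e1, Ttr and Serpina1c were called down after Con A + PBS, and the median score of Cyp2e1 was 148316 in control mice and 30215 after Con A + PBS. Between the Con A groups no marker of the Kupffer cell, T, NK and NKT cell or hepatocyte lists was called. No marker of these lists was at 0 in all mice of a group. The part of these cell types in the changes of the interleukin-1 family was not tested.

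Within groups, the same mice tended to stand at the ends for several members. In both Con A groups replicate 4 had the lowest Il18, Il18bp and Il1rap and the highest Irak3 and Il1r1, and replicate 2 had the lowest Il1rn, Irak3 and Il1r1 and the highest Il1rap. Replicate 4 was also the highest and replicate 2 the lowest of their Con A groups on the first principal component over all genes, which held 64.8% of the variance. Across 12 mice, the deviations from the group means had a Pearson r of -0.90 for Irak3 and Il1rap, -0.83 for Il18 and Il1r1, and -0.81 for Il33 and Il18bp. The deviations share their libraries and are given as a description. The mouse with the lowest Il18bp of its group, replicate 4 of Con A + PBS, was thus also the mouse with the highest Il33 (318) and Il1r1 (7908).

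**Figure D5:**
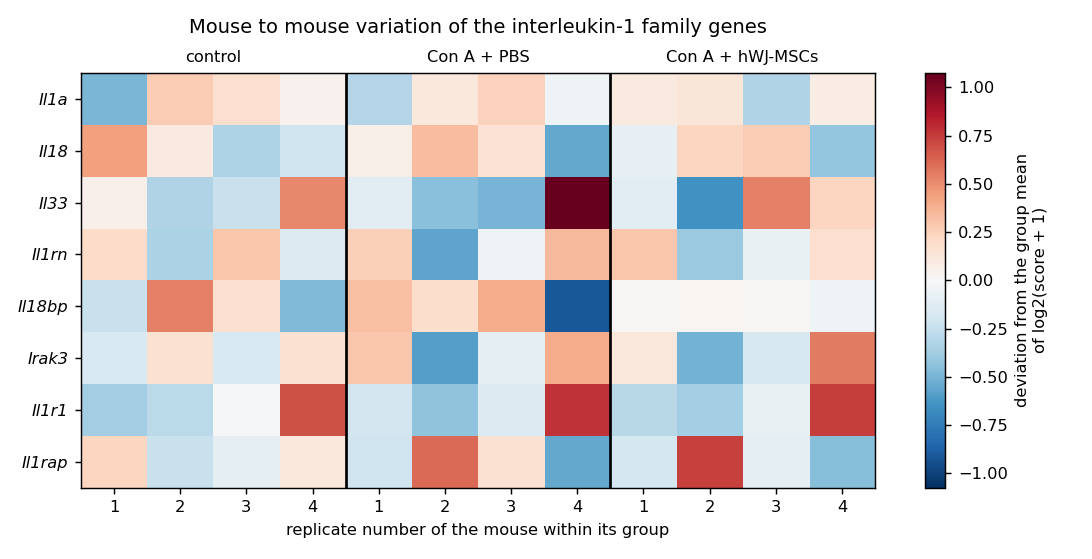
Deviation of log2(score + 1) from the group mean for the 8 genes (rows) in each of the 12 mice (columns, by group and replicate number), with red above and blue below the mean. In both Con A groups replicate 4 is red for Irak3 and Il1r1 and blue for Il18, Il18bp (faintly with hWJ-MSCs) and Il1rap, and replicate 2 shows the reverse for Irak3, Il1r1 and Il1rap.

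The genes whose pattern over the 12 mice was most like each member were found by Pearson r of log2(score + 1), 2 for each, and most of this likeness follows the 3 groups. Il1rn was closest to Cd14 and Slfn4 (r = 0.994 for both). Il18 was closest to Qdpr (0.996) and Sucnr1 (0.992), and Il1rap to Agmat (0.993) and Clcn2 (0.991). For Il18bp the nearest were Apol10b (0.994) and Saa1 (0.993), for Irak3 Col4a1 (0.991) and Ddx28 (0.990), and for Il1r1 Qsox2 and Tacc2 (0.987 for both). Il33 had Prmt1 (0.969) and Ppp2r2a (0.968), and Il1a, whose scores were low in all groups, had the weakest best match, Mtmr1 (0.931), before Zbtb22 (0.920). For Il1rn and Cd14 the r of the deviations within groups was 0.61, and for Il18 and Qdpr it was 0.97.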

How the data were processed

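Liver RNA of 12 mice, 4 per group, was assigned to its group (hWJ-MSCs or PBS after Con A, or control) from the treatment labels. The labels give 4 mice per group, so p-values measure the spread between mice. The authors deposited 1 table of normalised scores, whole numbers per gene and mouse that were already equalised between libraries. The submitters' processing notes name Bowtie2 2.2.1, RSEM 1.2.18 and mm10, and the study names DESeq2 for its own comparisons. The normalisation that made the scores is not given in the sources used here. Because the scores are not counts, no count model was fitted, the depth is unknown and no counting interval or floor is given. Libraries of nearly equal totals and tied top values (10 genes at 341028 in every mouse) limit the precision for the highest genes. Each gene is represented by 1 transcript, so isoforms were not separated.

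Scores were tested as log2(score + 1) with limma 3.58.1 (lmFit and eBayes with trend, R 4.3.3), and a fold change on this scale understates that of genes with low scores. All other steps ran in Python 3.11.15 with matplotlib 3.10.9, numpy 2.4.6, pandas 2.3.3 and scipy 1.17.1, and the limma step was tested on simulated data. The members, pathway lists and marker lists were chosen with earlier results of these data known. The genes named are every member, every further ligand or receptor in the table, Myd88, Irak1, Irak2 and Irak4, the 2 called genes with the largest change per list and direction, and the 2 genes most like each member. Gsdmd, Casp1, Tnfaip3, Nfkbia and Saa1 were named for their roles after their values were seen, and so were the markers named one by one, and Ccl2, Ier3 and Naip5. A test of Il1rn minus Il1b was planned, and Il1b was not analysed here. Il1rn minus Il18bp, the marker sum without Cd14 and the fits of Tnfaip3, Nfkbia, Gsdmd and the response list without 1 mouse were added after the values were seen. Alternatives were a fold change above 2, unadjusted p, a pseudocount of 10, a minimum mean score of 100, eBayes without a trend, median centring, only the 8 samples compared, a replicate block and leaving out each mouse. Mice with the same replicate number were not paired in the main fit. The correlation of their deviations from the group means ranged from -0.118 to 0.375, the highest being between replicates 2 of the Con A groups. Promoters came from RefSeq (GRCm38.p6).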

Additional observations from a re-analysis of the deposited data

Results flagged for a closer look

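A gap test for a mouse far from the other 3 of its group (Dixon's test, critical value 0.829) was run on 81 groups of values, and chance flags about 1 in 20 of such groups. It marked 8 values. Where the other 3 values are tied, any different value is marked whatever its size. This holds for those of Saa3, Il1r2 and Nos2, so the 8 are not compared with that share. Among the members these were the lowest Il1a of the hWJ-MSC mice (42, replicate 3) and the lowest Il18bp in each Con A group (924 in replicate 4 of Con A + PBS and 1939 in replicate 4 of Con A + hWJ-MSCs). The second of these Il18bp values lay close to the other 3 mice, at 2026 to 2042. Among the other named genes they were the lowest Irak4 after Con A + PBS (235, replicate 4) and the lowest Saa3 in each Con A group (20871 and 29668, both replicate 4). Control replicate 3 had the highest Il1r2 (4) and Nos2 (6) of its group, where the other controls were at 0.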

How the results depend on the processing

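All 8 members kept their call and direction after Con A + PBS in each fit that left out 1 mouse, and 5 were called when a mean score of at least 100 was required, which removed the 3 lowest from the test. As 4 of the 8 are in the table through the control mice alone or the Con A mice alone, this is a description. The fits did not redo that selection. Of the 4 calls between the Con A groups, 1 was left with only the 8 samples compared and 2 at a fold change above 2, and the fits without 1 mouse gave 0 to 5. The counts without Con A + PBS replicates 1, 3 and 4 were 0, 1 and 1, and without Con A + hWJ-MSCs replicates 1, 2 and 3 they were 1, 0 and 0. For Con A + hWJ-MSCs versus control they gave 6 to 7. Over the 4 pathway lists the fits without 1 mouse gave 38 to 42, 1 to 15 and 30 to 34 calls in the 3 comparisons, and a fold change above 2 gave 9 between the Con A groups and 22 for Con A + hWJ-MSCs versus control. Leaving out 1 mouse kept Il1rn minus Il1a at 6.27 to 6.70, -1.999 to -1.58 and 4.49 to 4.92, and Il18bp minus Il18 at 4.76 to 5.15, -0.82 to -0.61 and 4.06 to 4.46, in the same order of comparisons. Uncalled differences between the Con A groups changed sign in some of the fits without 1 mouse, which ranged from -0.093 to 0.34 for Il18bp, -0.022 to 0.14 for Irak1, -0.069 to 0.036 for Irak2 and -0.57 to 0.13 for Saa3. The replicate block matches mice of the same number, whose deviations had a median correlation of 0.0162. Between the Con A groups it was 0.375 and 0.244 for replicates 2 and 4, and -0.043 and -0.087 for replicates 1 and 3. Replicate 2 of either Con A group against replicate 4 of the other gave -0.385 and -0.322. Whether the number marks something that the mice share was not tested. The block gave 8, 5 and 7 member calls in the 3 comparisons in place of 8, 4 and 6. The gene added was Il33, between the Con A groups (limma adjusted p = 0.0256) and for Con A + hWJ-MSCs versus control. With such matching, 4 pairs cannot give an exact permutation p below 0.125. Median centring changed no value, since the libraries share 1 median. The cause of these changes was not tested.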
